A study of Rattus norvegicus with 12 samples.

Results

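The immediate-early transcription factors of the EGR, AP-1 and NR4A families were followed in CC531, a rat colon carcinoma cell line, during treatment with butyrate or aspirin. The members were 10 genes chosen by name, of 4736 genes that the array's annotation names: Egr1, Egr2 and Klf10 among the zinc finger factors, Fos, Fosl1, Jun, Junb, Jund and Atf3 among the AP-1 leucine zipper proteins, and the orphan nuclear receptor Nr4a1. Every probe set whose only annotated gene was one of these was taken, which gave 22 of the 8740 probe sets on the array. Egr1 and Jun had 4 probe sets each, Fos and Klf10 3, Junb and Nr4a1 2, and the others 1. Of these 22, 20 probe sets of 9 genes were bright enough to be tested, and only those carry a test. The probe set of Jund and 1 of Klf10 did not pass the filter on low values.

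There were 12 arrays, each of 1 RNA sample. Butyrate (4.5 mM) and aspirin (3 mM) were each sampled at 2, 6, 12, 16 and 24 h, with 1 array for each agent and hour, and 2 arrays were made of untreated cells, at 2 and 24 h. Butyrate, a fermentation product of dietary fibre in the gut, is an inhibitor of histone deacetylases, the enzymes that remove acetyl groups from chromatin. Aspirin blocks cyclooxygenases and so the synthesis of prostaglandins. The agents differed in dose as well as in kind. CC531 is 1 line, so all groups share its genotype, and separate cultures are not stated. The p-values therefore measure only the spread between these arrays, which may be technical, and within an agent that spread holds any change over the hours. In RNA from a whole culture, fewer cells that express a gene and less of its RNA per cell cannot be told apart.

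Immediate-early genes are those that a cell transcribes within minutes of a growth factor, stress or hormone signal, without first making new protein. Their usual triggers are kinase cascades that act on factors already sitting at their promoters, such as the serum response factor at CArG boxes and CREB at cyclic AMP response elements (CREs). Many of their products are themselves transcription factors: EGR proteins bind GC-rich sites, FOS and JUN proteins pair to bind AP-1 sites, and NR4A receptors bind DNA without a known hormone, so the transient first wave sets a later wave of target genes. In colon carcinoma the AP-1 proteins, FOSL1 among them, are known for their part in growth and invasion.

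The promoter windows of 4 genes whose levels changed are shown because these carry, or lack, the elements through which the first wave is usually switched on. RefSeq's table for the rat build GRCr8 held a window, from 250 bases before to 50 bases after the annotated start, for 6 of the 10 genes (Egr1, Egr2, Fosl1, Junb, Jund and Nr4a1). The windows printed lie on chromosome 18 (26736828 to 26737127, plus strand) for Egr1, chromosome 20 (21054392 to 21054691, minus strand) for Egr2, chromosome 1 (212183635 to 212183934, plus strand) for Fosl1 and chromosome 19 (40080876 to 40081175, plus strand) for Junb. Capitals mark CArG boxes (CC, a run of A or T, then GG) and the CRE core CGTCA on either strand, which reads TGACG on the other.
Egr1: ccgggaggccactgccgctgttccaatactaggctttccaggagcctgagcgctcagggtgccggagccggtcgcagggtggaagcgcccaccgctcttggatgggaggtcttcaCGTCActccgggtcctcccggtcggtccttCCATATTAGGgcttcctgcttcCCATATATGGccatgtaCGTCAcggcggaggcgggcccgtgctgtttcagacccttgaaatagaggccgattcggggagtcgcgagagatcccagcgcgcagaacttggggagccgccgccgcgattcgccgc
Egr2: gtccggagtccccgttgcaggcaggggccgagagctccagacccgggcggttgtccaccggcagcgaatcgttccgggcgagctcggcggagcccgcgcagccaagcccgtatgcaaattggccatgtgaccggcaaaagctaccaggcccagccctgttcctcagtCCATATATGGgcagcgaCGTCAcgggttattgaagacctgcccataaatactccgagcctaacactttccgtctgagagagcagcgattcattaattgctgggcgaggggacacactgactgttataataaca
Fosl1: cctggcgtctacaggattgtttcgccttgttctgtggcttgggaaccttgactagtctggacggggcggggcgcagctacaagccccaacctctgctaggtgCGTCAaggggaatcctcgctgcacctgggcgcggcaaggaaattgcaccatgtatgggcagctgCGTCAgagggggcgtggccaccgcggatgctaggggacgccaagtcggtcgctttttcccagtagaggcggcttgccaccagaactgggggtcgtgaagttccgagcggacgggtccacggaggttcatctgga
Junb: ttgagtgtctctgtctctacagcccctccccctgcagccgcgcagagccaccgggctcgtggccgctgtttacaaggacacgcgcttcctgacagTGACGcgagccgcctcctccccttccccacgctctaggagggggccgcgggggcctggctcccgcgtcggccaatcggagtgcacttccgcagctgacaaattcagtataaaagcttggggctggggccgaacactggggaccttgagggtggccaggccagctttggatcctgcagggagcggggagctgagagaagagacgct

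Egr1 and Egr2 carried CArG boxes, Egr1 at -105 to -96 and -83 to -74 from the start and Egr2 at -83 to -74. The other 4 windows had none, and 1.64% of all 33465 rat windows of this length held one. The CRE core was in all 6 windows, and in 21.2% of all. The full CRE, TGACGTCA, which contains that core on both strands, was in the Jund window and in 1.83% of all. The EGR site GCGNGGGCG was matched 3 times for Jund and 1 time for Nr4a1 (4.98% of all windows). The AP-1 site TGACTCA (4.63% of all) and the NR4A site AAAGGTCA (1.43%) were in none of the 6. All motifs were searched on both strands, and a match is a run of letters, not a bound site.

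**Figure D1:**
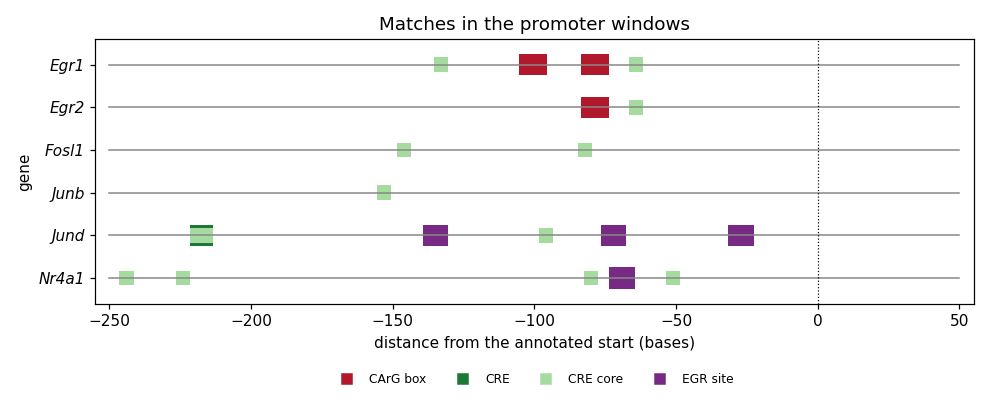
Position of each motif match in the promoter windows of the 6 genes found in RefSeq's table, as distance in bases from the annotated start (dotted line), 1 row for each gene. CArG boxes (red) are matched for Egr1 and Egr2 only, CRE cores (light green) for all 6 genes, the full CRE (dark green) for Jund, and EGR sites (purple) for Jund and Nr4a1.

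The first comparison, butyrate against untreated cells, asked which of the factors differed over the whole of the 2 to 24 h course. Egr1, Egr2 and Fos rose and Fosl1 fell, while no probe set of Klf10, Jun, Junb, Atf3 or Nr4a1 passed the test. Values are deposited array intensities, changes are differences of mean log2 intensity ± SE, and values under a floor of 91 were raised to it before taking log2. A probe set is called where the adjusted p over all 6118 tested probe sets (limma on 12 arrays, Benjamini-Hochberg) is under 0.05. With butyrate 7 of the 20 member probe sets were called higher and 1 lower, in 4 genes, where 7.78% of all probe sets were called higher and 3.92% lower. At an unadjusted p under 0.05 there were 12. The share of all probe sets at that cut is not given, here or for later counts of this kind. These counts therefore cannot be read against the shares of adjusted calls. The median change was 0.85 over the 20 member probe sets and 0.00 over all tested.

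Egr1, a zinc finger activator with GC-rich sites in many growth genes, rose with butyrate on 3 of its 4 probe sets and with aspirin on 1. Its brightest probe set (AF023087_s_at) read 9975.7, 12519.9, 12487.7, 11818.4 and 13947.7 at 2, 6, 12, 16 and 24 h of butyrate, 8291.2, 4697.5, 4917.8, 7551 and 7851.1 at the same hours of aspirin, and 2653.5 and 2582.5 in untreated cells at 2 and 24 h. Every array of either agent lay above both untreated arrays, and every butyrate array above every aspirin array. The level was already high at the first hour sampled with both agents, and with aspirin it was lower at 6 and 12 h than at the other hours. Egr1 rose by 2.21 ± 0.22 with butyrate (4.61-fold, adjusted p = 0.000291). It rose by 1.31 ± 0.22 with aspirin (2.47-fold, adjusted p = 0.0363), a call lost under 17 of 21 alternatives.

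A second Egr1 probe set (M18416_at) gave the same order of groups at a lower signal. It read 1697.5, 2748.3, 2765.2, 2266.6 and 2936.2 over the hours of butyrate, 1074.7, 458.1, 630.7, 469.9 and 744.3 over those of aspirin, and 353.1 and 251 in untreated cells. The 3 groups did not overlap on it. The rise with butyrate was 3.03 ± 0.34 (8.18-fold, adjusted p = 0.000306), and the difference of 1.11 ± 0.34 with aspirin did not pass (0.36).

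On another Egr1 probe set (rc_AI176662_s_at) the butyrate arrays read 404.7, 665.5, 754.1, 509.3 and 600.8, the aspirin arrays 227, 147.9, 151.9, 281.7 and 258.6, and the untreated arrays 159.8 and 179.8. Here aspirin overlapped the untreated pair and butyrate did not. The rise with butyrate was 1.76 ± 0.35 (adjusted p = 0.00884, but 0.0548 without the untreated 2 h array), against 0.28 ± 0.35 with aspirin (0.844). The fourth (U75398_s_at) was dim, from -19.9 to 351.9 with butyrate, 10.3 to 314.8 with aspirin and -6.5 to 198.1 in untreated cells, and neither difference passed (0.46 ± 0.65, adjusted p = 0.701, with butyrate and 0.14 ± 0.65, adjusted p = 0.989, with aspirin).

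Egr2, best known for its role in hindbrain patterning and in the myelin programme of Schwann cells, also rose with butyrate. U78102_at read 163.1, 331.3, 330.9, 335.4 and 408.1 over the hours of butyrate, 100, 70.9, 85.9, 140.1 and 123.9 over those of aspirin, and 82.5 and 93 in untreated cells. All 5 butyrate arrays lay above every other array, with the 2 h array the lowest of them. The rise was at least 1.71 ± 0.33 with butyrate (3.27-fold, adjusted p = 0.00668), a lower limit because 1 untreated array was at the floor. The call was lost with a higher floor (0.75, adjusted p = 0.114) and in a fit of those groups alone (0.051). With aspirin the difference was 0.23 ± 0.33 (0.871).

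Klf10, a zinc finger repressor first described as a TGF-beta early gene, was not called with either agent against untreated cells, although its butyrate and aspirin arrays did not overlap. Its brightest probe set (rc_AI172476_at) read 1862.2, 1705.6, 1576.9, 1784.8 and 1947.4 with butyrate, 706.3, 714.5, 943, 954.5 and 862.4 with aspirin, and 1433.4 and 691 in untreated cells. Of the untreated arrays, that at 2 h lay between the treatments and that at 24 h just under the lowest aspirin array. The differences from untreated were 0.83 ± 0.27 with butyrate (adjusted p = 0.0601, but 0.00812 without the untreated 2 h array) and -0.26 ± 0.27 with aspirin (0.798).

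The other tested Klf10 probe set (rc_AI071299_at) read 1803, 1089.4, 1126.9, 1228 and 928.7 with butyrate, 313.3, 382.8, 598.4, 442.4 and 413.1 with aspirin, and 1071.3 and 464.1 in untreated cells. The untreated 2 h array lay inside the butyrate range and the 24 h array inside the aspirin range. Neither difference passed (0.77 ± 0.36, adjusted p = 0.179, with butyrate and -0.75 ± 0.36, adjusted p = 0.49, with aspirin). U88630_at was too dim to test: 10.7 to 111.1 with butyrate, -231.3 to -30.2 with aspirin, and -125.8 and -212.2 in untreated cells.

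Among the AP-1 proteins, Fos, the founding partner of JUN and a short-lived product in most cells, rose on all 3 of its probe sets. X03347cds_g_at read 1196.4, 1056.5, 759.2, 893.9 and 995.7 with butyrate, 373.3, 266.8, 361.3, 546 and 445.5 with aspirin, and 298.9 and 349.3 in untreated cells. Every butyrate array lay above every other array, and aspirin overlapped the untreated pair. The rise was 1.58 ± 0.31 with butyrate (3-fold, adjusted p = 0.00783), against a difference of 0.26 ± 0.31 with aspirin (0.834).

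X06769cds_at, a second probe set of Fos, was above the floor in butyrate at every hour and in untreated cells at none. It read 795.2, 548.4, 399.3, 552.7 and 384.3 with butyrate, 49.1, -62.8, -40.9, 58.2 and 216 with aspirin, and -190 and -119.4 in untreated cells. Of the aspirin arrays, the 24 h array alone exceeded the floor. The rise with butyrate was at least 2.51 ± 0.39 (5.68-fold, adjusted p = 0.00188), and its size ran from 1.51 to 6.98 with the choice of floor. With aspirin the difference was 0.25 ± 0.39 (0.879).

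The third Fos probe set, X06769cds_g_at, comes from the same sequence as the second and is no independent measurement. It read 2424, 2136.8, 1596.4, 1738.4 and 1833.3 with butyrate, 1076.8, 483.5, 696.1, 1031.2 and 1140 with aspirin, and 930 and 948.2 in untreated cells. Butyrate again lay above all other arrays. Its rise of 1.03 ± 0.32 passed the test narrowly (adjusted p = 0.0495) and was lost under 19 of 21 alternatives, while aspirin differed by -0.16 ± 0.32 (0.919).

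Fosl1, the FOS-related protein FRA-1, which accumulates in many carcinomas and in cells with an active ERK cascade, went the other way. M19651_at read 1872.2, 749.8, 462.5, 382.6 and 358.3 with butyrate, 3937.6, 3738.2, 3241.2, 3685.3 and 4637.1 with aspirin, and 3344.6 and 1923 in untreated cells. Every butyrate array lay below both untreated arrays, with a lower value at each later hour. At 2 h the difference was -0.84 (log2) from the untreated array of that hour, and small from that of 24 h. The aspirin arrays lay at or above the level of the untreated 2 h array except at 12 h. Fosl1 fell by 2.04 on the log2 scale with butyrate (SE 0.50, 4.11-fold, adjusted p = 0.0208), and with aspirin the difference was 0.59 ± 0.50 (0.735). The untreated pair itself differed by -0.80 (24 h minus 2 h). The call against untreated was lost without the untreated 2 h array (0.199), without the untreated 24 h array (0.0656) and without butyrate at 12, 16 or 24 h (0.058, 0.06 and 0.0558). It was lost under 10 of 21 alternatives in all, the others being the higher floor (0.0781), no filter (0.0723), a fit of those groups alone (0.13), time as a factor (0.0604) and the 2 and 24 h arrays alone (0.583).

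Jun, the main dimer partner of the FOS proteins, did not pass the test on any of its 4 probe sets with either agent. The brightest (rc_AI175959_at) read 1583, 1175.2, 555, 873.7 and 1334.2 with butyrate, 1304.3, 1662.5, 1663.2, 1772.6 and 2128.5 with aspirin, and 1195 and 1240.8 in untreated cells. The butyrate arrays fell on both sides of the untreated pair with the lowest value at 12 h, and all aspirin arrays lay above it. The differences were -0.23 ± 0.34 (adjusted p = 0.71) with butyrate and 0.47 ± 0.34 (0.667) with aspirin.

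A dimmer Jun probe set (rc_AA945867_at) read 158.7, 142, 86.4, 113.2 and 150.2 with butyrate, 202.8, 165.4, 169.9, 238.9 and 207.4 with aspirin, and 68.4 and 110.2 in untreated cells. Again all aspirin arrays lay above the untreated pair. The difference of means was at least 0.96 ± 0.26 with aspirin, which did not pass (adjusted p = 0.256), and butyrate differed by 0.36 ± 0.26 (0.4). The remaining probe sets stayed near or under the floor. X17163cds_s_at spanned -122.2 to 168.9 with butyrate, -0.6 to 199.4 with aspirin and -79.2 to 67 in untreated cells, and rc_AA944014_at -142.2 to 19.7 with butyrate, -53.6 to 101.5 with aspirin and 90.1 to 115.4 in untreated cells.

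Junb, a JUN-family protein that restrains JUN in many settings, had its highest level at 24 h with both agents. Its probe set rc_AA891041_at read 1895.1, 3263.4, 3461.9, 5449.4 and 7729.4 with butyrate, 2604.5, 2651.2, 3432.3, 4083.9 and 6238 with aspirin, and 1467.7 and 1876.8 in untreated cells. All treated arrays lay above both untreated arrays, the butyrate 2 h array only just. Averaged over the hours, neither difference passed (1.23 ± 0.44, adjusted p = 0.0868, with butyrate and 1.12 ± 0.44, adjusted p = 0.404, with aspirin). Without the butyrate 2 h array the butyrate difference was called (0.0177).

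The other Junb probe set (X54686cds_at) read 1189.2, 1699.2, 2084, 3068.1 and 4373.1 with butyrate, 1119.4, 1562.8, 1558.8, 2173.7 and 4904.3 with aspirin, and 1035.5 and 1436.3 in untreated cells. The 2 h arrays of both agents lay between the untreated arrays and the later ones above them. Differences of 0.88 ± 0.52 (adjusted p = 0.294) with butyrate and 0.69 ± 0.52 (0.694) with aspirin did not pass.

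Atf3, a stress-induced repressor that pairs with JUN, read 416.1, 501.5, 498.2, 466.6 and 553 with butyrate, 276, 412.9, 330.3, 554 and 555.1 with aspirin, and 393.2 and 501.7 in untreated cells (M63282_at). The 3 groups overlapped. The differences were 0.13 ± 0.33 (adjusted p = 0.849) with butyrate, with a 95% interval from -0.58 to 0.83, and -0.12 ± 0.33 (0.954) with aspirin. Jund, the JUN protein usually present in resting cells, read under the floor on every array, from -99.6 to -21.1 with butyrate, from -151 to -51.1 with aspirin, and -85.8 and -94.2 in untreated cells, so this probe set (D26307cds_at) gives no level for it.

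Nr4a1, known as NUR77 and studied in colon cells for its part in cell death, lay higher with butyrate than in untreated cells on every array without passing the test. U17254_at read 648.7, 748.6, 621.8, 573.9 and 704.5 with butyrate, 289.3, 315, 259.9, 404.5 and 467.7 with aspirin, and 513.5 and 269.3 in untreated cells. U17254_g_at, from the same sequence, read 1068.1, 1387.2, 1096.2, 1164.2 and 1211.9 with butyrate, 299.6, 788.3, 716.8, 1155.3 and 1037 with aspirin, and 422.2 and 889.5 in untreated cells. The untreated pair moved in opposite directions on these probe sets, by -0.93 on the first and 1.08 on the second (24 h minus 2 h, log2). The differences with butyrate were 0.82 ± 0.33 (adjusted p = 0.121) and 0.95 ± 0.44 (0.173), and with aspirin -0.13 ± 0.33 (0.941) and 0.25 ± 0.44 (0.902).

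**Figure D2:**
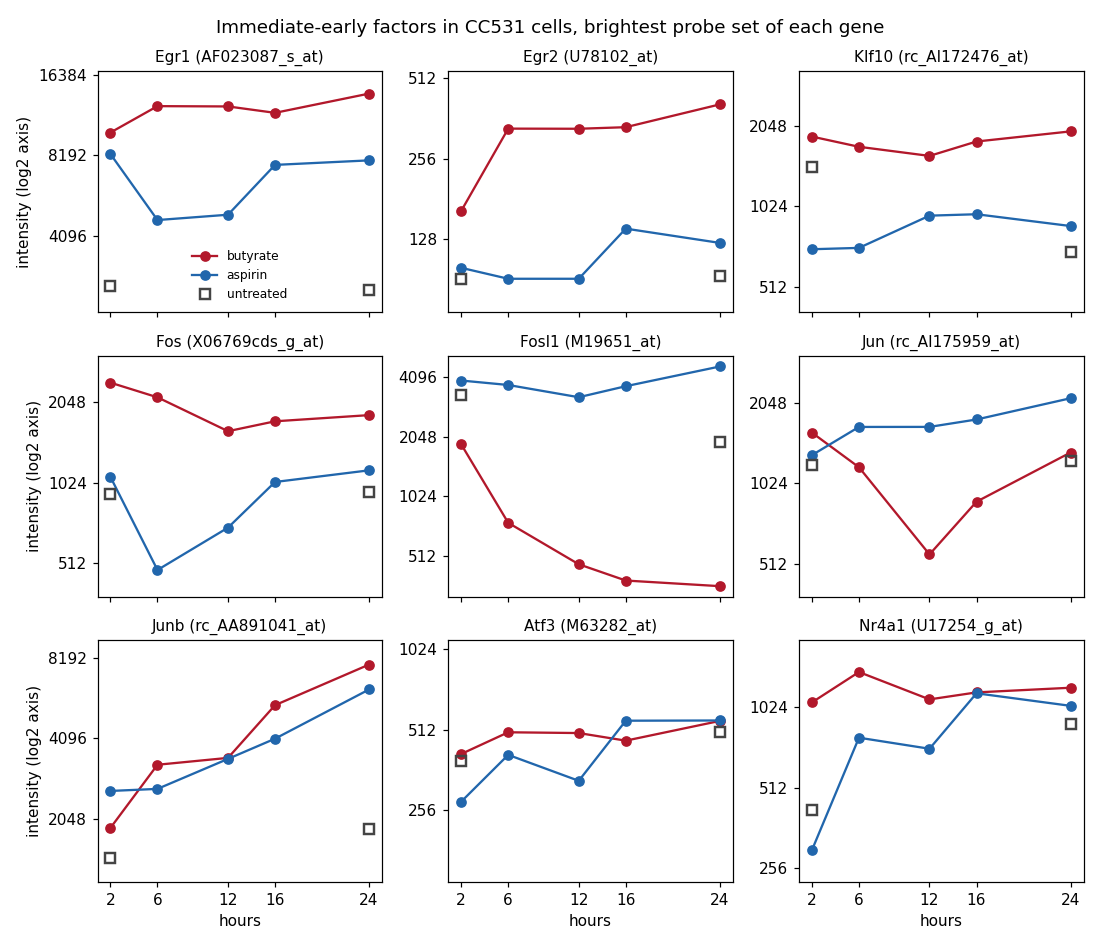
Deposited intensity (log2 axis, values under the floor of 91 drawn at it) against hours for the brightest probe set of each of the 9 tested genes, with butyrate in red, aspirin in blue and untreated cells as open squares, 1 array for each point. Egr1, Egr2 and Fos lie above both untreated arrays at every hour of butyrate, Fosl1 reaches 358.3 at 24 h of butyrate against 4637.1 at 24 h of aspirin, and Junb is highest at 24 h with both agents.

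Butyrate arrays did not overlap the untreated pair, on the higher side, for 11 of the 20 member probe sets, where that held for 14.7% of all tested probe sets. The calls of Egr1 on its 2 brightest probe sets and of Fos on X03347cds_g_at and X06769cds_at were kept whichever single array was left out. They were lost when only the 2 and 24 h arrays were fitted with time as a block (adjusted p = 0.51), as were all other member calls with butyrate. The 2 untreated arrays differed by 2-fold or more on 4 of the 20 member probe sets and on 16.5% of all tested.

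In the second comparison, aspirin against untreated cells, 1 member probe set was called higher (Egr1) and 0 lower, with 4 at an unadjusted p under 0.05 (limma). Of all probe sets, 0.0817% were called higher and 0.0654% lower. The Egr1 call was lost without the untreated 2 h array (adjusted p = 0.152). It was also lost without any 1 of the aspirin 2, 12, 16 and 24 h arrays (0.0624 to 0.136). The same held for any 1 of the butyrate 6, 12, 16 and 24 h arrays (0.0773 to 0.114). Over all 21 alternatives the size of the Egr1 difference ran from 1.22 to 1.62. Aspirin arrays lay wholly above the untreated pair on 5 of the 20 member probe sets (2 of Egr1, 2 of Jun and 1 of Junb), where 3.81% of all tested did so. The median change was 0.26 over the member probe sets and -0.04 over all. Both treatment comparisons use the same untreated arrays, so an error in those arrays enters both.

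**Figure D3:**
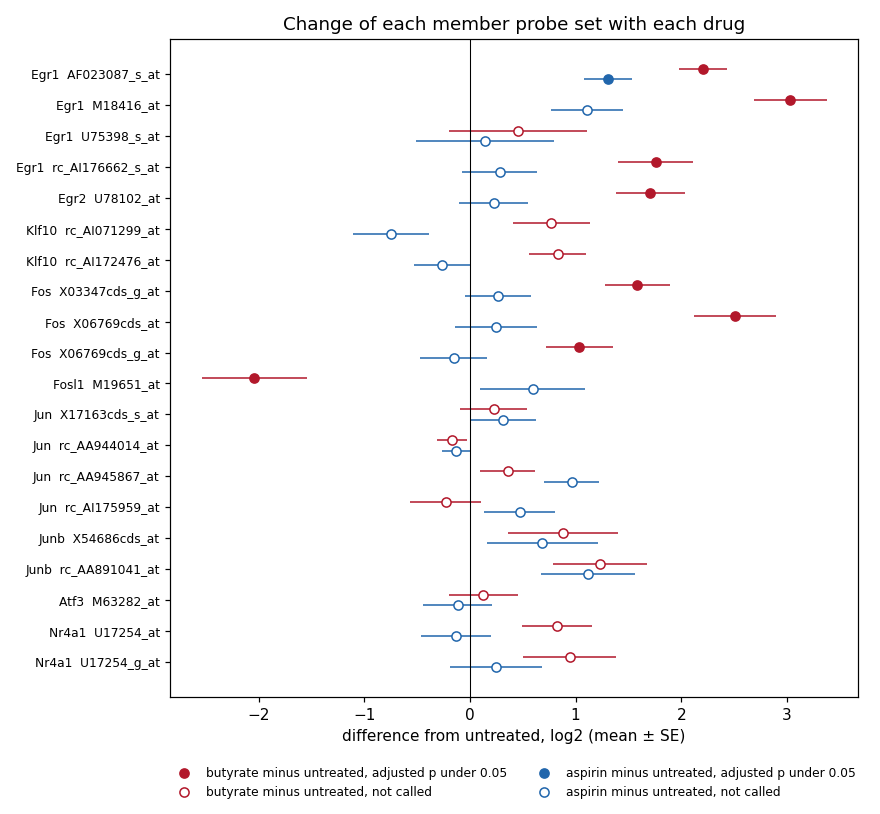
Difference from untreated cells (log2, mean ± SE from limma, 12 arrays) for each of the 20 tested member probe sets, with butyrate in red and aspirin in blue, filled where the adjusted p is under 0.05. The 3 brighter Egr1, the Egr2 and the 3 Fos probe sets lie to the right with butyrate and Fosl1 at -2.04 to the left, and the 1 filled aspirin point is Egr1 at 1.31.

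The third comparison set butyrate against aspirin at the same hours, on 10 arrays with time as a block, and does not depend on the untreated pair. Egr1, Egr2, Klf10, Fos and Nr4a1 were higher with butyrate, and Fosl1 and 1 Jun probe set lower. In all 10 of the 20 member probe sets were called higher with butyrate and 2 lower, in 7 genes, where 15.6% of all probe sets were called higher and 9.61% lower (limma). The median difference was 0.80 over the member probe sets and 0.10 over all. When each array was centred on its median instead, 10 member probe sets were called higher and 4 lower, where 27.2% of all called probe sets were higher (61.8% without centring), and the median of all probe sets shifted by -0.31.

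The difference was 0.90 ± 0.18 (adjusted p = 0.0213), 1.93 ± 0.29 (0.01) and 1.48 ± 0.30 (0.0217) on the 3 brighter Egr1 probe sets. Egr2 was higher by 1.48 ± 0.22 (2.79-fold, adjusted p = 0.00999), with 2 of the 5 aspirin arrays at the floor, and by 0.75 with the higher floor, where it was not called (0.0769). Klf10 was higher on both tested probe sets, by 1.09 ± 0.14 (2.14-fold, adjusted p = 0.00767) and 1.52 ± 0.26 (2.86-fold, 0.0135), and the first of these was the only member call kept under all 17 alternatives of this comparison. At 2 h the Klf10 gap was 1.40 and 2.52 on these probe sets, and at 24 h 1.18 and 1.17.

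Fos was higher with butyrate on its 3 probe sets, by 1.32 ± 0.23 (adjusted p = 0.0144), at least 2.26 ± 0.35 (0.0109) and 1.19 ± 0.23 (0.0196). Fosl1 was lower by 6.2-fold (-2.63 ± 0.38, adjusted p = 0.0095), and the gap was -1.07, -2.32, -2.81, -3.27 and -3.69 at 2, 6, 12, 16 and 24 h. It was thus larger at each later hour. Jun was lower on rc_AA945867_at (-0.60 ± 0.17, adjusted p = 0.049), a call lost in 13 of 17 alternatives, while the brighter rc_AI175959_at differed by -0.70 ± 0.27 (0.104). Nr4a1 was higher on U17254_at (0.95 ± 0.20, adjusted p = 0.0233) and differed by 0.70 ± 0.28 (0.117) on U17254_g_at, where the gap was 1.83 at 2 h and 0.01 at 16 h.

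For Junb the difference between the agents was 0.12 ± 0.15 (adjusted p = 0.581, 95% interval -0.24 to 0.47) and 0.19 ± 0.13 (0.31, -0.12 to 0.50). For Atf3 it was 0.24 ± 0.20 (0.415, -0.25 to 0.74). With 1 array left out the number of called member probe sets was 1 without butyrate at 16 h, 2 without aspirin at 12 or 16 h, 3 without butyrate at 12 h, 5 without butyrate at 6 h, 6 without butyrate at 24 h or aspirin at 6 or 24 h, and at most 12. The share of all probe sets called in each of these fits is not given, so a loss of calls over the whole array is not set apart. With time as a block, leaving out 1 array also takes its partner of the same hour out of the comparison. With 1 array left out the adjusted p of Egr1 on its brightest probe set reached 0.0816, that of Egr2 0.0525, that of Fos 0.0757 and that of Fosl1 0.0549. On that probe set the Egr1 call was also lost with the higher floor (0.0643) and without the filter (0.0621).

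**Figure D4:**
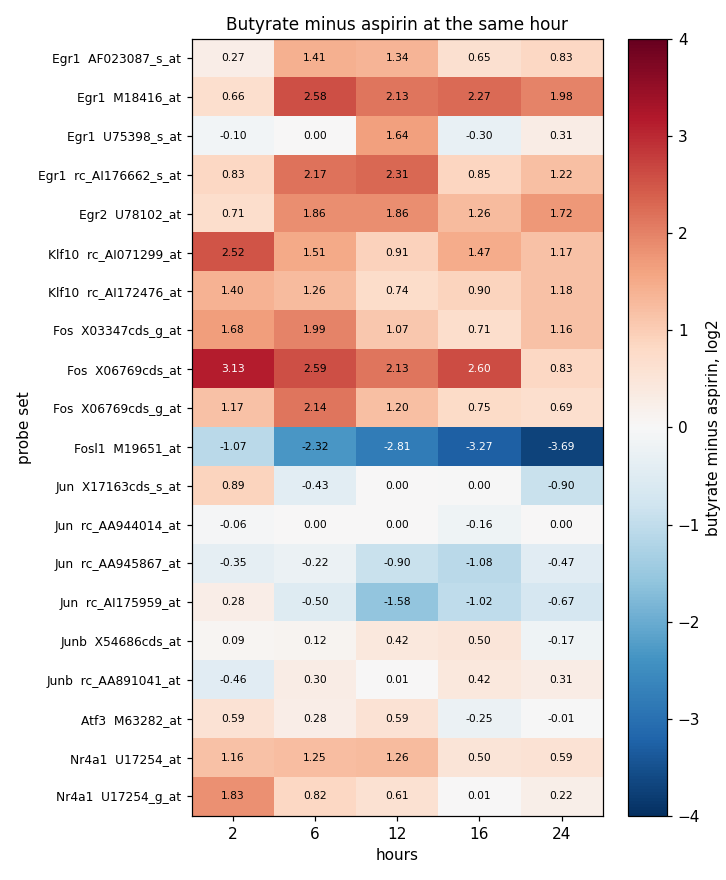
Butyrate minus aspirin at the same hour (log2, 1 array each, no error) for the 20 tested member probe sets in rows and the 5 hours in columns, red where higher with butyrate. The Egr2, Klf10 and Fos rows, those of the 3 brighter Egr1 probe sets and that of Nr4a1 on U17254_at are red at every hour. The Fosl1 row darkens in blue from -1.07 to -3.69, and the Junb and Atf3 rows stay pale.

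The fourth question was the course over time, tested as a slope of log2 intensity on log2 hours in the 10 treated arrays. Fosl1 fell and Junb rose on rc_AA891041_at over the hours of butyrate, and Nr4a1 rose on U17254_g_at over those of aspirin. Of the 20 member probe sets 1 had a rising and 1 a falling slope with butyrate (4.79% and 4.2% of all probe sets), 1 a rising slope with aspirin (1.32%) and 1 a lower slope with butyrate than with aspirin (1.05%).

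Fosl1 fell by 0.69 for each doubling of time with butyrate (SE 0.07, adjusted p = 0.00189, limma), or by 2.49 between 2 and 24 h. With aspirin its slope was 0.02 ± 0.07 (0.946), and the difference of the slopes was -0.72 ± 0.10 (0.0225). In untreated cells Fosl1 differed by -0.80 (24 h minus 2 h, log2), and the part of time alone in the fall was not tested. Without the butyrate 2 h array the fall (0.0944) and the difference (0.148) were not called, and the difference was also lost without butyrate at 16 h (0.0661) or aspirin at 2, 16 or 24 h (0.0565 to 0.0615).

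Junb rose by 0.52 ± 0.09 for each doubling of time with butyrate on rc_AA891041_at (adjusted p = 0.0148), 1.87 between 2 and 24 h, and by 0.32 ± 0.09 with aspirin, which did not pass (0.111). The call was lost without butyrate at 2 h (0.166), 16 h (0.0506) or 24 h (0.0845). Its other probe set had slopes of 0.49 ± 0.13 (0.0546) with butyrate and 0.48 ± 0.13 (0.0934) with aspirin. The difference between the agents' slopes was 0.20 ± 0.13 (0.477) and 0.01 ± 0.18 (0.988). In untreated cells Junb differed by 0.35 on rc_AA891041_at and by 0.47 on X54686cds_at (24 h minus 2 h, log2). The part of time alone in the rise of Junb was not tested.

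Nr4a1 rose by 0.50 ± 0.09 for each doubling of time with aspirin on U17254_g_at (adjusted p = 0.0471), where the 2 h array was the lowest of all 12 at 299.6, and its slope with butyrate was 0.02 ± 0.09 (0.971). Without the aspirin 2 h array the adjusted p was 0.432, and the call was lost in 12 of 16 alternatives. On U17254_at, from the same sequence, the slope with aspirin was 0.16 ± 0.10 and did not pass (0.413). Slopes were fitted to treated arrays only, and the untreated arrays read 422.2 at 2 h and 889.5 at 24 h on U17254_g_at. The part of time alone in this rise was not tested. The slope of Egr2 with butyrate was 0.33 ± 0.09 (0.0668), and that of Atf3 with aspirin 0.26 ± 0.09 (0.165). The Egr1 probe sets other than the dimmest, and those of Jun, had no slope with an unadjusted p under 0.05.

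Kin and partners of these factors were read against the 7.78% of all probe sets called higher and 3.92% called lower with butyrate than in untreated cells. Of 11 tested AP-1 and CREB relatives 1 was called higher with butyrate than in untreated cells and 0 lower, and of 9 EGR, NR4A and KLF relatives 0 in either direction, with 1 at an unadjusted p under 0.05 (limma). The median change was 0.15 and -0.02, against 0.00 over all tested. Mafk, a small MAF protein that pairs with other leucine zipper factors, rose by 1.46 ± 0.37 with butyrate (adjusted p = 0.0246): it read 1418.3, 1113.2, 1598.7, 1297.5 and 1846 with butyrate, 333.6, 291, 210.3, 655.8 and 310.5 with aspirin, and 525.2 and 516.1 in untreated cells. Against aspirin, where 15.6% of all probe sets were called higher and 9.61% lower, Mafk (2.10 ± 0.30, adjusted p = 0.00917) and Maf (at least 1.41 ± 0.28, 0.0208) were higher with butyrate and the zinc finger factor Klf6 lower (-0.84 ± 0.21, 0.0357). Cebpb, a leucine zipper factor of the acute phase response, rose over the hours of aspirin (slope 0.57 ± 0.06, 0.0154), with a slope lower by 0.60 with butyrate (0.0234).

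Of 33 other tested immediate-early or primary response genes, 2 were called higher and 3 lower with butyrate than in untreated cells (7.78% and 3.92% of all probe sets), with a median change of 0.05. Rhob, a small GTPase induced by growth factors and genotoxic stress, rose by 2.20 ± 0.24 (adjusted p = 0.000306), and Errfi1, a feedback inhibitor of the EGF receptor, by 1.28 ± 0.30 (0.0181). Myc fell by 2.77 (SE 0.33, adjusted p = 0.000407) and read 1002.1, 684.3, 555.5, 388 and 367.3 with butyrate, 2671 to 3843.7 with aspirin, and 3789.8 and 3820.6 in untreated cells. Like Fosl1 it was lower at each later hour of butyrate. Ifrd1 (-1.59 ± 0.43, 0.0303) and Id3, an inhibitor of helix-loop-helix factors (-1.42 ± 0.29, 0.00945), fell too. Against aspirin 6 were called higher and 7 lower with butyrate (15.6% and 9.61% of all), among the higher ones the ERK phosphatase gene Dusp5 (1.68 ± 0.27, 0.0119) and the neuropeptide precursor gene Vgf (1.85 ± 0.42, 0.0268).

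Of 20 tested kinases and serum response factors upstream of the first wave, 1 was called higher with butyrate than in untreated cells and 0 lower (7.78% and 3.92% of all probe sets), with 8 at an unadjusted p under 0.05 (limma) and a median of 0.02. The gene called was Prkaca, the catalytic subunit of the cyclic AMP-dependent kinase (1.11 ± 0.28, adjusted p = 0.0222, called on 1 of its 2 probe sets). Against aspirin 3 were higher and 1 lower with butyrate (15.6% and 9.61% of all): Mapkapk2, a kinase under p38 (1.19 ± 0.22, 0.017), Prkcd (1.19 ± 0.28, 0.0306) and Prkaca (1.09 ± 0.18, 0.0135), and the JNK pathway kinase Map3k12 (-1.05 ± 0.14, 0.00796).

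Of 25 tested genes described as targets of AP-1 or EGR proteins, 1 was called higher and 2 lower with butyrate than in untreated cells (7.78% and 3.92% of all probe sets), with a median of 0.13. The adhesion receptor Icam1 rose by at least 1.75 ± 0.36 (adjusted p = 0.00903), the cyclin gene Ccnd1 fell by 1.78 (SE 0.36, 0.00884) and the tissue factor gene F3 fell 2.83-fold (0.022). Against aspirin 4 were higher with butyrate (Icam1, Lmna, Gclc and Mmp9) and 4 lower (Ccnd1, F3, Nqo1 and Vim), where 15.6% and 9.61% of all were called. Mmp13, a collagenase, rose over the hours of butyrate (slope 1.20 ± 0.26, 0.0311), and the urokinase gene Plau over those of aspirin (0.83 ± 0.11, 0.02). Mmp13 read 62.8, 497.4, 721.3, 1461.5 and 1775.8 with butyrate and -1.4, 46.5, 275.6, 1044.3 and 2193.2 with aspirin. Its level thus rose with both agents, from under the floor at 2 h, although its slope with aspirin was not called. Between aspirin and untreated cells 0 genes of these 5 lists were called (limma), with 2, 1, 4, 0 and 5 at an unadjusted p under 0.05 in the order given here.

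The genes whose course over the 12 arrays was most like that of a member were named by Pearson's r of log2 intensity between brightest probe sets, a description over arrays that share agent, hour and scaling. For Egr1 they were Ndufv3 (r = 0.951), Serinc3 (0.941) and Ift25 (0.941), and for Egr2 Cnp (0.987), Tcp11l2 (0.981) and Slc41a2 (0.973). For Klf10 they were Cdc42ep3 (0.974), Srpk2 (0.957) and Gnpat (0.955). Fos was followed less closely, by Pias3 (0.895), Asah1 (0.893) and Hgs (0.890). Nearest to Fosl1 were Ptpmt1 (0.979), Smim13 (0.973) and Ccnd1 (0.970), and to Junb Mmp13 (0.920), Rabac1 (0.902) and Ube2b (0.889). For Jun they were Ica1 (0.925), Serpinh1 (0.903) and Ptms (0.840), for Atf3 Cntnap1 (0.922), Hand1 (0.895) and Or8g20b (0.895), and for Nr4a1 Ppard (0.945), Syngr2 (0.924) and Dennd3 (0.913).

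Among the members, Egr2 and the Egr1 probe set rc_AI176662_s_at had an r of 0.961 over the 12 arrays, and Egr2 and Fosl1 one of -0.924. Within butyrate and within aspirin the first pair gave 0.746 and 0.916, and the second -0.937 and 0.464. Different probe sets of a gene gave, over the 12 arrays, 0.933 for Junb, 0.933 for Klf10, 0.891 to 0.936 for Fos and 0.552 for Nr4a1. Within butyrate and within aspirin those of Klf10 gave 0.090 and 0.817, those of Junb 0.992 and 0.960, and those of Nr4a1 0.702 and 0.647. Those of Fos gave 0.716 to 0.956 within butyrate and 0.293 to 0.829 within aspirin. Over the 12 arrays the 3 brighter Egr1 probe sets gave 0.872 to 0.929 among themselves and 0.258 to 0.419 with the dim U75398_s_at. Among themselves these 3 gave 0.761 to 0.964 within butyrate and 0.243 to 0.928 within aspirin. Those of Jun, of which 2 were near or under the floor, gave -0.276 to 0.778 over the 12 arrays.

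The label of a colon carcinoma line was set against markers. Of 11 epithelial and colon carcinoma markers listed, 7 were on the array and all 7 were tested. Their summed intensity was 60597 to 70692 with butyrate, 63887 to 74268 with aspirin and 63822 to 75726 in untreated cells. Summed markers of fibroblasts and smooth muscle (8 of the 10 on the array were tested) came to 3942 to 4906 with butyrate, 2322 to 5025 with aspirin and 4774 to 5816 in untreated cells. Those of blood and immune cells (6 of 8) came to 1221 to 1770 with butyrate, 842.5 to 1555 with aspirin and 1160.2 to 2045 in untreated cells. Those of endothelium (3 of 4) came to 508.7 to 585.1 with butyrate, 553.3 to 751 with aspirin and 781.3 to 928.3 in untreated cells. The endothelial sum was lower on every treated array than in untreated cells. Myh11, Cd8a, Lyz2 and Vwf were under the floor on every array. The part of these levels in the results was not tested.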

How the data were processed

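RNA of CC531 cells was measured on 12 arrays of 1 Affymetrix rat design, with probe sets named by the platform annotation. The table used is the deposited one, whose values are array intensity on a linear scale. No label or header names the scanner software, the background correction or the scaling method (not given in the sources used here). With 2% trimmed from each end, every deposited column of intensity averaged 999.999 to 1000, so the authors' values were read as scaled to a common mean, and no further normalization was applied. On each array 21.6 to 25.6% of values were negative. At most 0.114% of values were identical between any pair of arrays, and 0 columns went unused.

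Deposited values under a floor of 91, the absolute 10th percentile of all values, were raised to it and turned into log2. Of 8799 rows 59 were controls, and the remaining 8740 probe sets were filtered on mean log2 at its 30th percentile (6.54), which removed 2622 and left 6118. On each array 13.4 to 21.1% of tested values were at the floor. "At least" marks a change whose lower group lay at the floor on 1 or more untreated or on most treated arrays.

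Groups were compared with limma 3.58.1 in R 4.3.3 (lmFit, then eBayes with a variance trend). Each agent was set against untreated on all 12 arrays (9 residual degrees of freedom), the agents against each other on 10 arrays with time as a block (4), and a slope on log2 hours was fitted to each agent in those 10 (6). P-values were adjusted by Benjamini and Hochberg over all 6118 probe sets, at a threshold of 0.05. Precision is limited by the number of arrays. The scripts were tested on simulated data. Alternatives were other floors (5th and 25th percentile), no filter, quantile normalization, median centring, no variance trend, other sample sets or time terms, and each array left out.

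The members, the gene lists and the rule for named genes (all members, up to 4 called genes of each list, comparison and direction, and the 3 genes most like each member) were chosen with earlier results of these data known. A gene in a list was represented by its brightest probe set. Promoter windows and motif counts come from RefSeq's rat table (GRCr8).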

Additional observations from a re-analysis of the deposited data

Results flagged for a closer look

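Within each group of 5 treated arrays the most extreme array was compared with the others for each of the 20 tested probe sets, 40 groups in all, by its gap to the nearest array over the group's range (critical ratio 0.71). Chance gives about 1 such array in 20 groups, and the arrays of a group are different hours rather than repeats. Egr2 at 2 h of butyrate was the lowest of its group at 163.1 (ratio 0.771). Fos on X06769cds_at was highest at 24 h of aspirin at 216 (ratio 1), with the other 4 aspirin arrays at the floor. Jun on the dim X17163cds_s_at was highest at 2 h of butyrate at 168.9 (ratio 0.738).

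The slope of Fosl1 over the hours differed between the agents, by -0.72 for each doubling of time (butyrate minus aspirin, adjusted p = 0.0225 by limma on 10 arrays), with a fall at every step with butyrate and no called slope with aspirin.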

How the results depend on the processing

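Of 1612 recomputed member values, 1404 kept their direction and side of the threshold, 154 lost a call, 13 gained one and 41 changed sign. Most of the 1612 were of probe sets not called in the main fit, which had no call to lose. The 154 are therefore a larger share of the calls than of all these values. The design limits most calls: 2 untreated arrays, 1 array for each agent and hour, and a floor that bounds dim probe sets. The labels number no replicates, so arrays were paired only by hour, with time as a block, between the agents (12 calls with that block and 12 without it) and on the 2 and 24 h arrays. The cause of the changes that follow was not tested. Most counts in the next paragraph stand without the share of all probe sets called in the same setting, so they do not describe the members alone.

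Called member probe sets with butyrate against untreated numbered 8, with 5 at the floor of the 5th percentile, 0 on the 2 and 24 h arrays alone with a time block (8 with an unadjusted p under 0.05, limma) and 6 to 8 with 1 array left out. For aspirin the 1 call became 0 with the floor at the 5th percentile, quantile normalization, median centring, no filter, no variance trend, those groups alone, the 2 and 24 h arrays and time as a factor (2 to 6 at an unadjusted p under 0.05, limma), and 0 to 1 with 1 array left out. With quantile normalization or median centring 0 probe sets of the whole array were called with aspirin. Between the agents the 12 became 6 with the floor at the 5th percentile and 1 to 12 with 1 array left out. For slopes, the 2 calls with butyrate became 4 with the floor at the 25th percentile and 0 to 3 with 1 array left out. The 1 call with aspirin became 0 with the floor at the 5th percentile, quantile normalization or no filter (4 to 5 at an unadjusted p under 0.05, limma), and 0 to 1 with 1 array left out, as did the 1 slope difference.

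Values that changed sign were of probe sets not called in the comparison concerned, although some were called in another. With butyrate, Atf3 (0.13) was -0.045 with quantile normalization, -0.061 with median centring and -0.049 to 0.30 with 1 array left out. Jun on rc_AI175959_at (-0.23) was 0.26 on the 2 and 24 h arrays and 0.0039 with time as a factor, and Egr1 on U75398_s_at (0.46) was -0.11 to 1.02 with 1 array left out. With aspirin, Atf3 (-0.12) was 0.025 with quantile normalization, 0.0031 with median centring and -0.29 to 0.060 with 1 array left out. Fos on X06769cds_g_at (-0.16) was 0.24 on the 2 and 24 h arrays, 0.11 with time as a factor and -0.26 to 0.045 with 1 array left out. Nr4a1 on U17254_at (-0.13) was 0.028 with quantile normalization and -0.60 to 0.33 with 1 array left out, and on U17254_g_at (0.25) -0.14 on the 2 and 24 h arrays and -0.29 to 0.78 with 1 array left out. Single arrays also moved Klf10 on rc_AI172476_at (-0.79 to 0.26), Egr1 on U75398_s_at (-0.42 to 0.71) and Jun on rc_AA944014_at (-0.30 to 0.044).

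Between the agents, Egr1 on U75398_s_at (0.31) was -0.29 with the floor at the 25th percentile and -0.022 to 0.46 with 1 array left out, and Atf3 (0.24) was -0.070 with quantile normalization and -0.064 with median centring. Junb was -0.11 and -0.19 on X54686cds_at and rc_AA891041_at with median centring, and Jun on X17163cds_s_at ran from -0.33 to 0.11 with 1 array left out. Median centring shifted the median of all probe sets by -0.19 with butyrate, 0.12 with aspirin and -0.31 between the agents, and quantile normalization by -0.11 between the agents. Against untreated cells, median centring turned the butyrate split of all called probe sets to 370 higher and 437 lower, against 476 and 240, with 6 member probe sets higher and 1 lower. For slopes, median centring gave -0.023 for Nr4a1 on U17254_g_at with butyrate and -0.051 for Fosl1 with aspirin, and leaving out 1 array gave -0.10 to 0.045 and -0.060 to 0.14. The slope difference ran from -0.27 to 0.23 for Junb on X54686cds_at, -0.070 to 0.32 on rc_AA891041_at and -0.35 to 0.50 for Egr1 on U75398_s_at.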
